A study of Homo sapiens with 4 samples.

Results

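AXIN2, NKD1, APCDD1, ZNRF3, TNFRSF19 and NOTUM are genes that restrain Wnt signalling and that the pathway itself commonly switches on, so that they form its negative feedback. They were chosen by name, with earlier results of these data known. These symbols were matched to the gene names in the deposited matrices, where they make up 6 of 33538 genes and each has 1 identifier. They were followed in single-cell RNA sequencing (scRNA-seq) of HCEC-1CT (1CT), a line of human colonic epithelium that TERT and CDK4 had immortalised, whose cells carried either a scrambled shRNA (shScr) or 1 that targets APC (shAPC). The 4 groups were shScr and shAPC cells at day 3 and the same at day 7, counted from transduction, with 1 library in each group. Cells of both arms had been transduced, selected with puromycin and grown in a low-serum medium with EGF, insulin and hydrocortisone, and there was no untransduced library. The labels call the virus retroviral and the methods lentiviral. The 10x kit is v2 in the labels and in the study's supplementary sequencing statistics, and V3 in the methods. Neither point could be settled here. The model is 1 line with 1 shRNA against APC, and the sources used here do not say that the libraries of a day came from separate cultures.

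Wnt ligands bind Frizzled and LRP receptors at the cell surface, which stops a complex of APC, AXIN and the kinases GSK3 and CK1 from marking β-catenin for destruction. β-catenin then enters the nucleus and, with TCF and LEF factors, switches on target genes, among them genes that turn the pathway down again. In the colon this circuit keeps stem cells at the crypt base, and loss of APC, the usual first step of colorectal cancer, leaves β-catenin active without a ligand. The 6 genes act at different levels: AXIN2 and NKD1 inside the cell, ZNRF3, APCDD1 and TNFRSF19 at its surface, and NOTUM outside it.

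AXIN2 (ENSG00000168646) lies on chromosome 17 at 65528563 to 65561648 on the minus strand (GRCh38, GENCODE 44, as all gene positions here). NKD1 (ENSG00000140807) lies on chromosome 16 at 50548396 to 50649249 and ZNRF3 (ENSG00000183579) on chromosome 22 at 28883572 to 29057488, both on the plus strand. APCDD1 (ENSG00000154856) lies on chromosome 18 at 10454635 to 10489949 and TNFRSF19 (ENSG00000127863) on chromosome 13 at 23570370 to 23676104, both on the plus strand. NOTUM (ENSG00000185269) lies on chromosome 17 at 81952507 to 81961840 on the minus strand, and all 6 are protein coding. RefSeq promoter windows (GRCh38.p14) of 300 bases, 250 before and 50 after a start site, were at hand for APCDD1 and for 2 start sites of TNFRSF19. The 250 upstream bases are shown because β-catenin acts through TCF and LEF factors, whose core motif would be looked for in such windows.
APCDD1, chr18:10454385-10454634, plus strand: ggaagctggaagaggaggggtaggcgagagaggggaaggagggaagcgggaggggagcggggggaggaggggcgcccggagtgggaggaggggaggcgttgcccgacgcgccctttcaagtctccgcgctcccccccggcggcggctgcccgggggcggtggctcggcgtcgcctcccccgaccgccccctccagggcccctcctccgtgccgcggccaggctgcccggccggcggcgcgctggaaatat
TNFRSF19, first start site, chr13:23570162-23570411, plus strand: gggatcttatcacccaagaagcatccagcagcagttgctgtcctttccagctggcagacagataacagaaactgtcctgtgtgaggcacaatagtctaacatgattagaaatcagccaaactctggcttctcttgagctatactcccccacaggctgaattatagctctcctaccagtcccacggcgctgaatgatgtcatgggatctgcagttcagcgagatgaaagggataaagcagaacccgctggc
TNFRSF19, second start site, chr13:23579110-23579359, plus strand: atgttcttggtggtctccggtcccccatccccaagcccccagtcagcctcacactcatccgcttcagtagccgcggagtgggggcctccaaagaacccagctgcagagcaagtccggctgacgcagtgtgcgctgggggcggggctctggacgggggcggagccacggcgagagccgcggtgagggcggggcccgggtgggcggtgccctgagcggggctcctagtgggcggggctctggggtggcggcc
The APCDD1 window and the second TNFRSF19 window were rich in G and C, at 76.0% and 72.7% of their 300 bases with 33 and 27 CG dinucleotides, and the first TNFRSF19 window was not, at 49.0% with 4. The TCF core CTTTGA or CTTTGT, searched on both strands, was in none of the 3 windows, so nothing is in capitals, and it was in 26.2% of all 35116 windows of this length. This says only that these letters are not in these windows.

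The UMIs (distinct molecules) of each gene were summed over the barcodes, called cells below, in which 200 or more genes and 500 or more UMIs had been counted and the mitochondrial share was under 5%. This kept 1116 cells of shScr and 788 of shAPC at day 3, and 2600 of shScr and 1478 of shAPC at day 7, with 28451455 to 39797418 UMIs in all and a median of 35109, 49685.5, 1330 and 21029.5 UMIs per cell in the same order. Levels are given as CPM, the UMIs of a gene per 1000000 UMIs of all genes in the cells or barcodes summed. They have an exact Poisson 95% interval, and ratios have an exact conditional binomial 95% interval. The intervals cover counting error only, there is no replicate check, and no test between libraries was run. They also take UMIs as independent, so they are too narrow where a cell holds several UMIs of a gene. The labelled cell type went partly against the data: of 10 colonic epithelial markers 6 were at or under 3 UMIs in every library, CDX2 and KRT20 were at 0 in all 4 and EPCAM had at most 2 UMIs, whereas KRT8 and CLDN7 were present and 10 mesenchymal markers summed to 9092 to 11659 CPM. Of 7 leukocyte and endothelial markers 4 to 6 were at or under 3 UMIs in each library, but others were present. The 7 summed to 18.0 to 30.4 CPM, beside 25.0 to 49.3 CPM for the 10 colonic epithelial markers. The pair of libraries of a day shared more barcode sequences than other pairs, 23 at day 3 and 25 at day 7 against 2 to 7. The matrices of both shScr libraries were written by Cell Ranger 3.0.2 and those of both shAPC libraries by 3.0.0, so that effects of the version and of the shRNA cannot be told apart. The total of 18 interferon response genes was 4276 CPM in shAPC day 3 against 933, 1049 and 522 CPM in shScr day 3, shScr day 7 and shAPC day 7, and its part in the day 3 comparison was not tested. In sums over a library, a change in the number of cells that express a gene and a change in its level per cell cannot be told apart.

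APC, the target of the shRNA, had 639 UMIs in shScr day 3 and 193 in shAPC day 3, and 597 in shScr day 7 and 188 in shAPC day 7. Its log2 ratio of shAPC to shScr stood at -1.54 (95% interval -1.78 to -1.31) at day 3, and for day 7 it was -1.53 (-1.78 to -1.29), which goes with the labels at both days.

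The 6 genes together had a higher level in shAPC than in shScr at both days, and the highest in shAPC day 7. Summed over the 6 genes, 146 UMIs were counted in shScr day 3, 258 in shAPC day 3, 100 in shScr day 7 and 362 in shAPC day 7, or 3.67, 7.38, 3.20 and 12.7 CPM. The shAPC/shScr ratio of this sum was 2.01-fold at day 3 and 3.97-fold at day 7. The sum hides unlike genes, since ZNRF3 gave 111 of the 146 UMIs of shScr day 3 but 100 of the 362 UMIs of shAPC day 7.

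AXIN2 is a scaffold of the β-catenin destruction complex and the most widely used readout of canonical Wnt signalling. It had 14 UMIs in shScr day 3 (0.352 CPM, 0.192 to 0.590), 57 in shAPC day 3 (1.63 CPM, 1.24 to 2.11), 4 in shScr day 7 (0.128 CPM, 0.0349 to 0.328) and 117 in shAPC day 7 (4.11 CPM, 3.40 to 4.93). Both shAPC libraries were above both shScr libraries with intervals that did not overlap, and the intervals of the shScr libraries overlapped each other. The shAPC/shScr ratio was 4.64-fold at day 3 and 32.1-fold at day 7, or 2.21 (1.35 to 3.17) and 5.00 (3.61 to 6.90) on the log2 scale.

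NKD1 binds Dishevelled inside the cell and limits the signal that reaches β-catenin. It had 1 UMI in shScr day 3, 12 in shAPC day 3 (0.343 CPM, 0.177 to 0.600), 7 in shScr day 7 (0.224 CPM, 0.0901 to 0.462) and 59 in shAPC day 7 (2.07 CPM, 1.58 to 2.67). Its interval in shAPC day 7 lay above those of the other 3 libraries, while those of shAPC day 3 and shScr day 7 overlapped. The log2 ratio of shAPC to shScr stood at 3.77 (1.02 to 9.19) at day 3, and for day 7 it was 3.21 (2.08 to 4.59).

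APCDD1 is a membrane protein that can bind Wnt ligands and LRP5 and so block the receptor. It had 4 UMIs in shScr day 3, 1 in shAPC day 3, 3 in shScr day 7 and 47 in shAPC day 7, the last at 1.65 CPM (1.21 to 2.20). It was thus near 0 in 3 of the 4 libraries, and its level in shAPC day 7 stood clear of their intervals, which reached no higher than 0.281 CPM. The 47 UMIs lay in 27 cells, with 11 UMIs in 1 cell, so the intervals that rest on them are too narrow. At day 7 the log2 ratio of shAPC to shScr was 4.10 (2.47 to 6.43), a 17.2-fold difference. At day 3 it was -1.81 with an interval from -7.43 to 1.52, on 5 UMIs over both libraries.

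ZNRF3 is a membrane ubiquitin ligase that removes Frizzled receptors from the cell surface. It had 111 UMIs in shScr day 3 (2.79 CPM, 2.29 to 3.36), 136 in shAPC day 3 (3.89 CPM, 3.27 to 4.60), 75 in shScr day 7 (2.40 CPM, 1.89 to 3.01) and 100 in shAPC day 7 (3.51 CPM, 2.86 to 4.27). Intervals of the libraries compared overlapped at both days. The log2 ratio of shAPC to shScr was 0.48 (0.11 to 0.86) at day 3, where the median over 15777 genes was 0.36, and 0.55 (0.10 to 1.00) at day 7, where the median over 15267 genes was 0.01. The day 3 ratio turned to -0.57 when CPM was averaged over cells and was 0.10 with TMM factors, while the day 7 ratio was 1.64 when averaged over cells.

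TNFRSF19, also called TROY, is a receptor of the tumour necrosis factor family and a Wnt target that marks intestinal stem cells and can dampen Wnt signalling there. It had 15 UMIs in shScr day 3 (0.377 CPM, 0.211 to 0.622), 48 in shAPC day 3 (1.37 CPM, 1.01 to 1.82), 11 in shScr day 7 (0.352 CPM, 0.176 to 0.630) and 38 in shAPC day 7 (1.34 CPM, 0.945 to 1.83). Both shAPC libraries lay above both shScr libraries without overlap of intervals. The log2 ratio of shAPC to shScr stood at 1.87 (1.00 to 2.81) at day 3, and for day 7 it was 1.92 (0.93 to 3.04).

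NOTUM is a secreted enzyme that cuts the lipid from Wnt ligands and so disables them. At day 3 shScr had 1 UMI of it and shAPC 4, at day 7 shScr had 0 and shAPC 1, and the 0 UMIs in shScr day 7 allow a level of up to 0.0961 CPM taken as 3 UMIs, or 0.118 CPM as the upper end of the exact Poisson interval. A log2 ratio could be given at day 3 only, 2.19 with an interval from -1.15 to 7.81. A difference in NOTUM was not detectable at this depth.

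**Figure D1:**
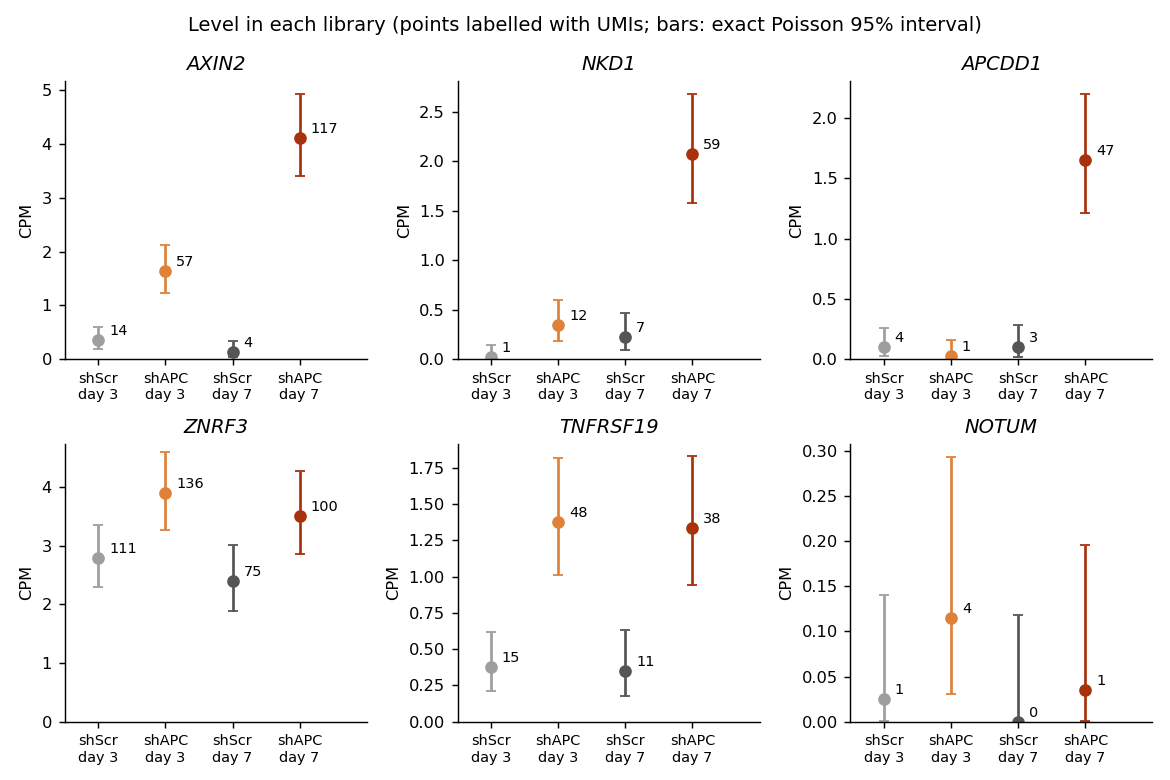
The 6 panels show the level of each gene in the 4 libraries in CPM (vertical axis, a separate scale for each gene), with its UMIs beside each point and the exact Poisson 95% interval as a bar. AXIN2, NKD1 and APCDD1 stand highest in shAPC day 7, TNFRSF19 is at 1.37 and 1.34 CPM in the shAPC libraries against 0.377 and 0.352 in the shScr libraries, and the ZNRF3 points lie between 2.40 and 3.89 CPM.

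Counted by size, 3 of the 4 members with at least 10 UMIs over both libraries were at least 2-fold higher in shAPC than in shScr at day 3 (AXIN2, NKD1 and TNFRSF19), against 12.4% of 15777 genes. At day 7 the number was 4 of 5, with APCDD1 added, against 6.92% of 15267 genes. Genes of 10 to 300 UMIs, the range of the members, passed this limit more often, in 24.8% and 15.2% of cases. None of the members with at least 10 UMIs was at least 2-fold lower in shAPC at either day, where 1.42% and 3.48% of all genes were. APCDD1 at day 3 and NOTUM at both days were under 10 UMIs, so the members that passed are not all members. NKD1 at day 3 and APCDD1 at day 7, among others, reached 10 UMIs only through their high library. The members had also been chosen with earlier results of these data known, so these counts are a description only. The median log2 ratio of the members that passed was 2.04 at day 3 and 3.21 at day 7, beside 0.36 and 0.01 over all genes tested.

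The paralogs of the members, their closest relatives by sequence, had ratios nearer to 0. AXIN1, the constitutive partner of AXIN2, had log2 ratios of 0.46 (0.20 to 0.72) at day 3 and -0.05 (-0.38 to 0.28) at day 7. EDA2R, a receptor of the same family as TNFRSF19, had 0.74 (0.55 to 0.92) and 0.39 (0.19 to 0.60), and APCDD1L had 0.18 (-0.15 to 0.50) and -0.12 (-0.55 to 0.32). None of these 3 was 2-fold apart at either day. RNF43, the partner of ZNRF3 in removing Frizzled, had at most 1 UMI and NKD2 at most 4 UMIs in a library.

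**Figure D2:**
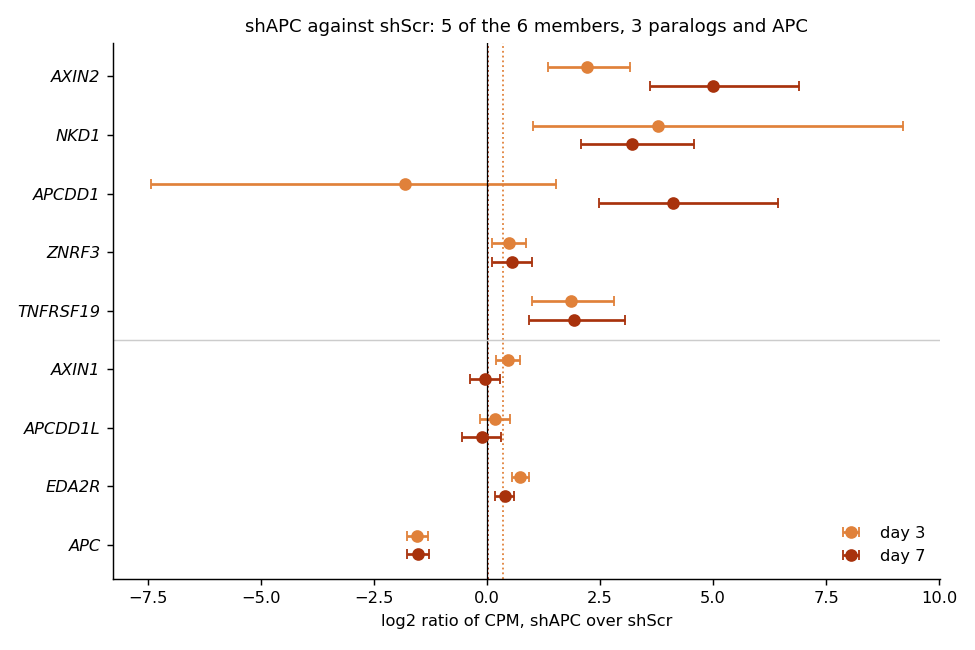
Points give the log2 ratio of CPM, shAPC over shScr (horizontal axis), at day 3 and day 7 for 5 members, 3 paralogs and APC, with exact conditional binomial 95% intervals as bars, and dotted lines mark the median of all genes tested at each day (0.36 and 0.01). AXIN2, NKD1 and TNFRSF19 lie to the right of both medians at both days, APCDD1 does so at day 7 only, and the paralogs lie between -0.12 and 0.74.

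Among 15 other inhibitors of the pathway, 10 could be compared at day 3 and 11 at day 7, and 1 and 3 of them were at least 2-fold higher in shAPC, beside the 12.4% and 6.92% of all genes given above. The day 3 share was thus under that of all genes. DKK2, a secreted ligand of LRP5 and LRP6, went from 24 UMIs in shScr to 56 in shAPC at day 3 and from 26 to 158 at day 7. The log2 ratios of DKK2 were 1.41 (0.70 to 2.16) and 2.74 (2.13 to 3.40). DACT3, which binds Dishevelled, had a log2 ratio of 0.92 (0.16 to 1.72) at day 3 and 1.88 (1.08 to 2.75) at day 7, and KREMEN2, a receptor for DKK proteins, had 1 and 11 UMIs at day 7. DKK1, the best known secreted inhibitor and also a Wnt target, was lower in shAPC at both days, by -0.36 (-0.42 to -0.29) and -0.69 (-0.75 to -0.63). The median of the inhibitors was 0.22 at day 3 and 0.21 at day 7.

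None of 22 genes for the core of the pathway, from Frizzled receptors to β-catenin and the tankyrases, was 2-fold apart at either day, and their median was 0.20 at day 3 and -0.15 at day 7. Among 14 other Wnt targets, 4 of 9 compared at day 3 and 2 of 8 at day 7 were at least 2-fold higher in shAPC. Of all genes 12.4% and 6.92% were so, and of those of 10 to 300 UMIs 24.8% and 15.2%. The median log2 ratio of the targets compared was 0.38 at day 3 and 0.13 at day 7, beside 0.36 and 0.01 over all genes. MYC, CCND1 and CD44 were not 2-fold apart at either day. LEF1 and TCF7, which encode partners of β-catenin, were so at both days, with log2 ratios of 1.19 and 1.14 at day 3 and 1.13 and 1.46 at day 7. The intestinal stem cell receptor LGR5 had at most 1 UMI in a library and SP5 had 0.

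From day 3 to day 7 within shAPC, AXIN2, NKD1 and APCDD1 were at least 2-fold higher at day 7, which makes 3 of 5 members compared, against 2.59% of 15775 genes and 6.27% of those of 10 to 300 UMIs. Their log2 ratios of day 7 to day 3 were 1.33 (0.87 to 1.82), 2.59 (1.68 to 3.63) and 5.85 (3.30 to 11.2), while the median over all genes was -0.30. ZNRF3 and TNFRSF19 had -0.15 (-0.53 to 0.24) and -0.04 (-0.69 to 0.60). APCDD1 entered this count only through its high library, with 47 UMIs in shAPC day 7 and 1 in shAPC day 3. Within shScr, none of 3 members compared was 2-fold higher at day 7, against 3.15% of 15248 genes, and 1 was 2-fold lower, against 3.23%: AXIN2, at -1.46 with an interval from -3.52 to 0.21. The pairs of libraries in these comparisons are shared, shAPC day 7 entering both the shRNA and the day comparison.

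The share of cells with a UMI of any member was 11.4% (exact binomial 95% interval 9.58 to 13.4) in shScr day 3, 23.2% (20.3 to 26.3) in shAPC day 3, 3.65% (2.97 to 4.45) in shScr day 7 and 15.8% (14.0 to 17.8) in shAPC day 7. These shares follow the depth per cell, so each cell of at least 10000 UMIs was thinned by calculation to 10000 UMIs, which kept 765, 576, 919 and 927 cells. The expected shares were then 3.37% (2.21 to 4.91), 6.75% (4.84 to 9.12), 3.57% (2.47 to 4.98) and 11.3% (9.34 to 13.5) in the same order. At equal depth the intervals of the shScr libraries overlapped, that of shAPC day 3 reached into theirs by a narrow margin, and that of shAPC day 7 stood above the other 3. AXIN2 was at 0.378% and 1.59% of thinned cells in shScr and shAPC at day 3 and at 0.137% and 4.37% at day 7, and ZNRF3 at 2.47% and 3.54%, then 2.71% and 3.45%. ZNRF3 thus had the largest share of a single member in every library but shAPC day 7, where AXIN2 did. The line holds no cell type that should lack these genes, so a background share from free RNA could not be given.

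In shAPC day 7 the cells with a member had more of its UMIs than an even spread would give. APCDD1 was found in 27 cells, of which 10 had at least 2 UMIs and 1 had 11, whereas a constant rate per UMI gives 45.8 cells with a UMI and 1.19 with at least 2. NKD1 was found in 41 cells with 9 having at least 2 UMIs, beside 57.1 and 1.86 from a constant rate, and AXIN2 in 98 cells with 16, beside 110 and 6.96. For ZNRF3 the values were 88 cells with 12, beside 94.6 and 5.16. In shAPC day 3 the same comparison gave 38 cells with TNFRSF19, 7 of them with at least 2 UMIs, beside 45.9 and 2.05, and 52 cells with AXIN2, 4 of them with at least 2 UMIs, beside 54.0 and 2.86.

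Within shAPC day 7 the levels also differed by the depth of the cell, in classes of UMIs per cell that were set after the values had been seen. The 6 genes summed to 29.1 CPM (22.7 to 36.8) in 146 cells of 10000 to under 20000 UMIs, 12.9 CPM (11.3 to 14.6) in 647 cells of 20000 to under 40000 UMIs and 6.40 CPM (4.59 to 8.68) in 134 cells of 40000 UMIs and above. The intervals of these 3 classes did not overlap, but they take the UMIs of a cell as independent. A cell of this library held up to 17 UMIs of members, so the intervals are too narrow. The 551 cells under 10000 UMIs went against this order, at 10.8 CPM (5.57 to 18.8) on 12 UMIs, with AXIN2 at 4.49 CPM on 5 UMIs and APCDD1 at 2.69 CPM on 3. In shScr day 7 the classes from 10000 UMIs upwards had 4.22, 3.63 and 2.72 CPM, with intervals that overlapped, and the 1681 cells under 10000 UMIs had 0.846 CPM on 2 UMIs.

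The members differed in this. Against deeper cells, APCDD1 in cells of 10000 to under 20000 UMIs of shAPC day 7 was at 9.56 against 0.842 CPM, a log2 ratio of 3.50 (2.59 to 4.43). NKD1 had a log2 ratio of 1.75 (0.77 to 2.65) and AXIN2 of 0.99 (0.17 to 1.73), while ZNRF3 had 0.53 (-0.48 to 1.41) and TNFRSF19 -0.17 (-2.52 to 1.49). Of all 14035 genes compared this way, 6.13% were at least 2-fold higher in these cells, and the median log2 ratio was 0.11. APC had -0.58 (-1.61 to 0.29) and AXIN1 -0.20 (-1.24 to 0.69). At matched depth the shAPC/shScr ratio of the 6 genes summed at day 7 was 6.89-fold in cells of 10000 to under 20000 UMIs, 3.55-fold in cells of 20000 to under 40000 UMIs and 2.35-fold in cells of 40000 UMIs and above. The log2 intervals, 1.73 to 4.05, 1.43 to 2.24 and 0.47 to 2.02, overlapped from each class to the next. Cells under 10000 UMIs had 12.7-fold, on 12 and 2 UMIs. At day 3 the ratio was 1.40-fold (log2 -0.75 to 1.63) in cells of 20000 to under 40000 UMIs. It was 2.09-fold (log2 0.74 to 1.39) in those of 40000 UMIs and above.

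The day 7 against day 3 difference within shAPC depended on these classes. In cells of 40000 UMIs and above, of which shAPC day 3 held 500 and shAPC day 7 134, the 6 genes summed to 7.62 CPM at day 3 and 6.40 CPM at day 7, a log2 ratio of -0.25 (-0.77 to 0.23). AXIN2 had -0.42 (-1.71 to 0.66) there, TNFRSF19 -2.13 (-5.22 to -0.19) and NKD1 1.75 (0.25 to 3.16). APCDD1 had 0 UMIs at day 7 and 1 at day 3 in these cells. It had 21 and 0 UMIs in cells of 20000 to under 40000 UMIs, and 23 and 0 in those of 10000 to under 20000. The lower ends of its log2 intervals were -0.995 and -0.404 there, so its difference between days was not resolved within these classes. In cells of 20000 to under 40000 UMIs the sum was at 5.60 CPM at day 3, on 10 UMIs in 54 cells, and 12.9 CPM at day 7, a log2 ratio of 1.20 (0.30 to 2.28). The UMIs of a cell also depend on how deeply its library was sequenced, so equal counts need not mean alike cells at both days.

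**Figure D3:**
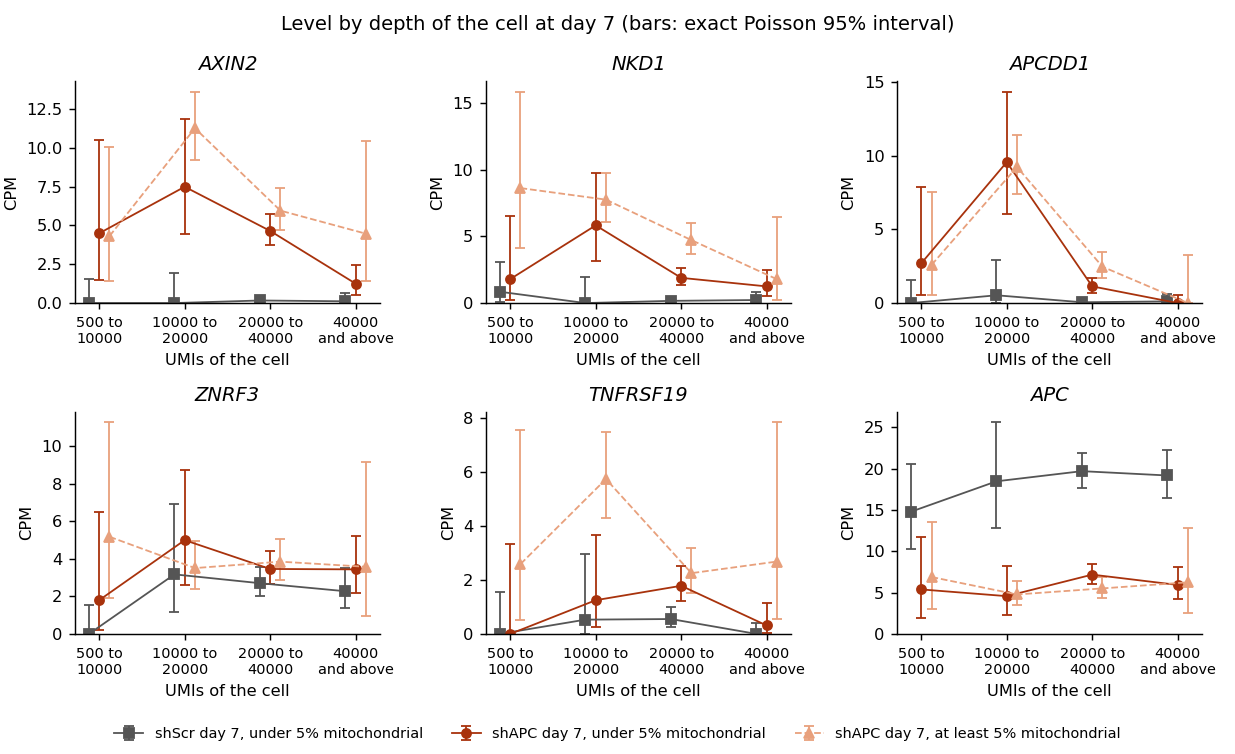
Each panel gives CPM (vertical axis) by UMIs of the cell (horizontal axis, 4 classes) for 5 members and APC at day 7, in shScr and shAPC cells under 5% mitochondrial UMIs and in shAPC barcodes of at least 5%, with exact Poisson 95% intervals as bars. In shAPC the APCDD1 points under 5% are at 2.69 CPM on 3 UMIs in the shallowest class, at 9.56 CPM in the next and at 0 in the deepest, NKD1 and AXIN2 are also highest at 10000 to under 20000 UMIs, and ZNRF3 and APC lie within overlapping intervals.

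The 5% limit on mitochondrial UMIs removed 51.2% of shAPC day 7 barcodes against 23.7% to 28.8% in the other libraries, and in shAPC day 7 the removed barcodes held more UMIs of the members than the kept cells did. They had 198 UMIs of AXIN2 against 117 kept, 150 of NKD1 against 59, 124 of APCDD1 against 47 and 91 of TNFRSF19 against 38, in 25491047 against 28451455 UMIs of all genes. ZNRF3 had 96 against 100 and NOTUM 6 against 1. The log2 ratio of removed to kept CPM was 0.92 (0.58 to 1.26) for AXIN2, 1.50 (1.06 to 1.96) for NKD1, 1.56 (1.06 to 2.07) for APCDD1, 1.42 (0.86 to 2.00) for TNFRSF19 and 0.10 (-0.32 to 0.52) for ZNRF3. Over 15339 genes the median was 0.12, and 3.27% were at least 2-fold higher in the removed barcodes, as were NKD1, APCDD1 and TNFRSF19 among the 5 members with at least 10 UMIs.

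Values of other genes and libraries are given beside this. APC had a log2 ratio of -0.31 (-0.64 to 0.02) in shAPC day 7, AXIN1 0.17 (-0.17 to 0.51) and DKK1 -0.39 (-0.47 to -0.32), while DKK2 had 0.79 (0.50 to 1.09). In shScr day 7 the removed barcodes held 4 UMIs of AXIN2, 4 of NKD1, 1 of APCDD1 and 2 of TNFRSF19 against 4, 7, 3 and 11 kept, so that the log2 ratio of shAPC to shScr among removed barcodes was 4.63 (3.26 to 6.52) for AXIN2 and 4.23 (2.85 to 6.13) for NKD1. On 1 and 2 UMIs in shScr it was 5.96 (3.45 to 11.3) for APCDD1 and 4.51 (2.62 to 7.58) for TNFRSF19. ZNRF3 had a removed to kept log2 ratio of 0.98 (0.30 to 1.60) in shScr day 3, 0.70 (0.12 to 1.24) in shAPC day 3 and 0.55 (-0.02 to 1.10) in shScr day 7. In shAPC day 3 the removed barcodes held 13 UMIs of AXIN2, 4 of NKD1, 3 of APCDD1 and 10 of TNFRSF19. Against these, the removed barcodes of shAPC day 7 had log2 ratios of 1.73 (0.92 to 2.66), 3.03 (1.64 to 4.92), 3.17 (1.59 to 5.47) and 0.99 (0.04 to 2.10) for the same genes.

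By mitochondrial share, in classes also set after the values had been seen, APCDD1 in shAPC day 7 had 0 UMIs under 3%, and 1.90, 3.70, 7.85 and 9.67 CPM at 3 to under 5%, 5 to under 7%, 7 to under 10% and 10% and above. NKD1 went from 0.542 through 2.30, 4.66 and 9.34 to 9.67 CPM, and AXIN2 from 1.90 through 4.44, 7.73 and 8.59 to 4.84 CPM. The end classes rest on few UMIs. Under 3% NKD1 had 2 UMIs and AXIN2 7. At 10% and above NKD1 had 12 (5.00 to 16.9 CPM), APCDD1 12 (5.00 to 16.9 CPM) and AXIN2 6 (1.77 to 10.5 CPM). These intervals overlapped those of the class before, so the last step was not resolved for any of these genes. ZNRF3 was at 1.90 and then at 3.76, 3.81, 3.74 and 3.22 CPM. Depth differed between these classes too, with a median of 1579 UMIs under 3%, of 25657, 20576 and 15244 UMIs in the classes from 3 to under 10%, and of 2203 UMIs at 10% and above. Within cells of 10000 to under 20000 UMIs the removed to kept log2 ratio of the summed genes was 0.38 (0.00 to 0.77), with APCDD1 at -0.05 (-0.73 to 0.68) and TNFRSF19 at 2.20 (0.58 to 4.52). Within cells of 20000 to under 40000 UMIs the sum had 0.59 (0.33 to 0.84), NKD1 1.32 (0.70 to 1.96) and APCDD1 1.12 (0.29 to 1.98).

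**Figure D4:**
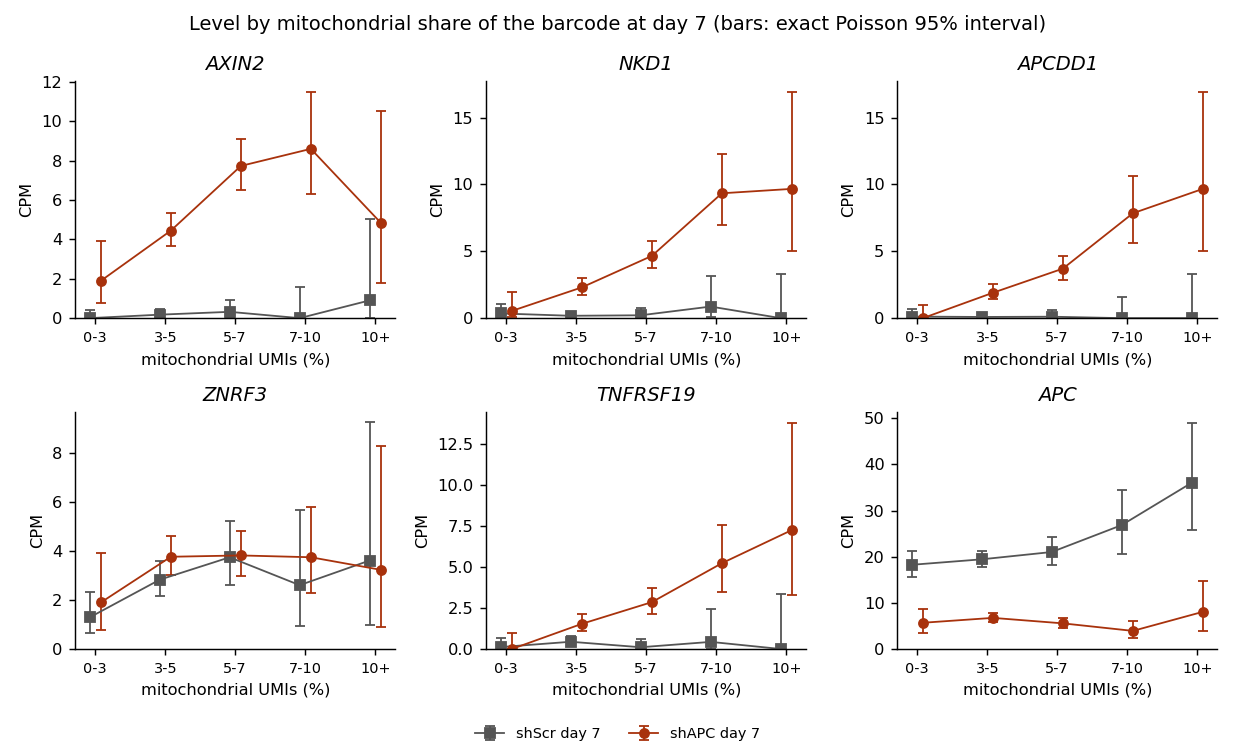
CPM (vertical axis) is plotted by the mitochondrial share of the barcode (horizontal axis, 5 classes in percent of UMIs) for 5 members and APC in shScr day 7 and shAPC day 7, with exact Poisson 95% intervals as bars. The shAPC points of NKD1, APCDD1 and TNFRSF19 go up over the classes, to 9.67, 9.67 and 7.25 CPM at 10% and above, while their shScr points stay near 0 and ZNRF3 is alike in both libraries.

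Members were next looked for in the same cells, against the number of cells that independence gives within 20 bins of equal depth in each library. In shAPC day 7, 46 of 1478 cells had UMIs of at least 2 members where 28.1 were given by independence, 1.64 times as many (1.20 to 2.18), and 9 cells had at least 3 members where 1.51 were given. In shAPC day 3 the numbers were 33 and 27.5 (0.83 to 1.68 times), in shScr day 3 they were 8 and 5.31 (0.65 to 2.97 times) and in shScr day 7 they were 1 and 1.88. With a constant rate per UMI in place of bins, which gives more cells with APCDD1, NKD1 or AXIN2 than were seen, the value for shAPC day 7 was 1.07 for at least 2 members and 2.52 for at least 3. Splitting each bin by mitochondrial share left it at 1.59.

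The pairs furthest above the number given were those of NKD1 with AXIN2, APCDD1 and TNFRSF19. In shAPC day 7, AXIN2 and NKD1 were found together in 19 cells where 4.23 were given, NKD1 and APCDD1 in 5 where 1.33 were given, and NKD1 and TNFRSF19 in 6 where 1.47 were given. These are the 3 of 10 pairs without NOTUM whose Poisson interval lay above the number given. ZNRF3 and TNFRSF19 were found together in 0 cells where 3.04 were given, and ZNRF3 with AXIN2 in 13 where 8.39 were given. In shAPC day 3, AXIN2 and NKD1 shared 4 cells where 1.11 were given, and no pair of the other 3 libraries had an interval above the number given.

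The removed barcodes of shAPC day 7, which are separate cells of the same library, gave 90 barcodes with at least 2 members where 71.1 were given and 23 with at least 3 where 6.45 were given. AXIN2 and NKD1 shared 40 barcodes where 13.7 were given, NKD1 and APCDD1 26 where 7.29 were given, AXIN2 and APCDD1 22 where 10.5 were given, and APCDD1 and TNFRSF19 15 where 4.93 were given. Pairs with ZNRF3 lay close to the number given or under it, with 9 where 11.7 were given for AXIN2 and 6 where 5.94 were given for APCDD1. With a constant rate, the interval lay above the number given for 1 of 10 pairs among the kept cells, AXIN2 and NKD1, with 19 where 6.93 were given. NKD1 with APCDD1, 5 where 2.91 were given, and NKD1 with TNFRSF19, 6 where 2.37 were given, no longer did, and ZNRF3 with TNFRSF19 lay under it, with 0 where 3.91 were given. Among the removed barcodes 2 of 10 pairs did, AXIN2 and NKD1 with 40 where 22.0 were given and NKD1 and APCDD1 with 26 where 14.3 were given. AXIN2 with APCDD1, 22 where 18.4 were given, and APCDD1 with TNFRSF19, 15 where 8.92 were given, did not. In these barcodes at least 2 members were found 0.860 times and at least 3 members 1.78 times as often as given. NOTUM was found in 5 removed barcodes, 4 of which also had AXIN2 where 0.583 were given.

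Each member was also set against a longer list of genes that are not members, with TCF7 and DACT3 among them. Only some pairs with NKD1 are given here, and the other pairs are not shown. The constant rate was not applied to these pairs, so no pattern over the list can be read from them. NKD1 and DKK2 shared 19 cells of shAPC day 7 where 5.21 were given and 39 removed barcodes where 16.5 were given, and NKD1 and LEF1 shared 5 where 1.12 were given and 12 where 3.80 were given. NKD1 with APC shared 5 where 6.48 were given and 9 where 10.9 were given, and NKD1 with AXIN1 shared 4 where 5.50 were given and 12 where 11.1 were given.

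**Figure D5:**
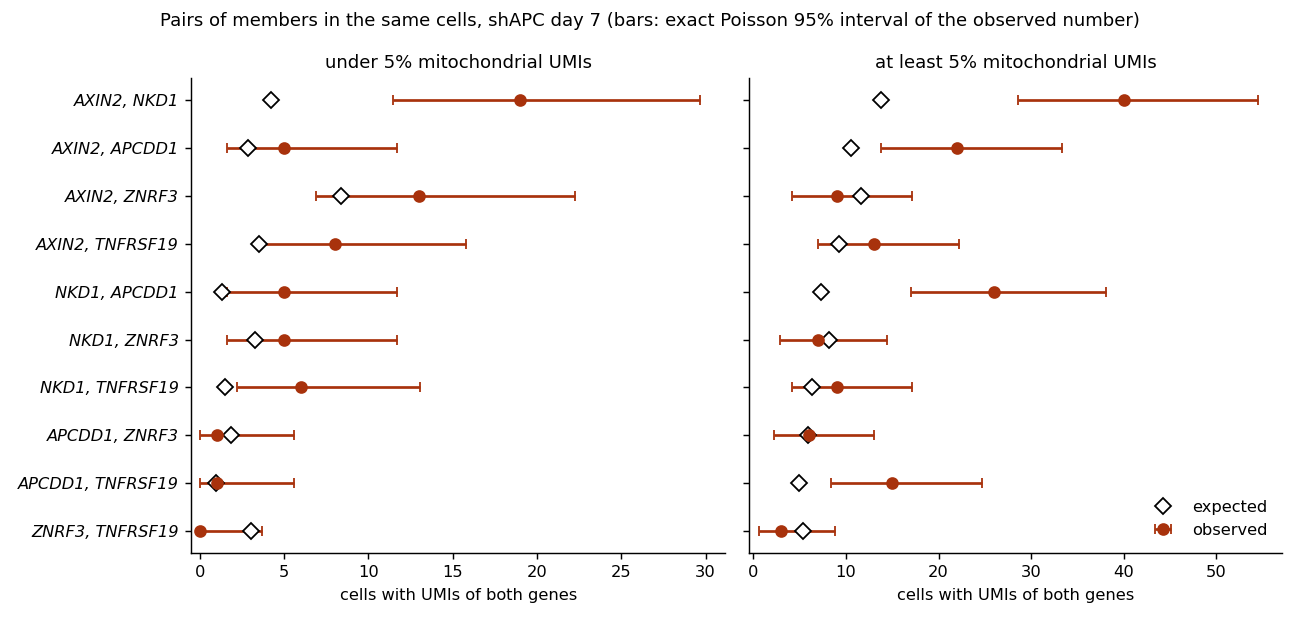
For each of 10 pairs of members in shAPC day 7, a filled point gives the observed number of cells with UMIs of both genes (horizontal axis) with its exact Poisson 95% interval, and an open diamond the number given by independence at matched depth, for cells under 5% mitochondrial UMIs (left) and barcodes of at least 5% (right). The bars of AXIN2 with NKD1 and of NKD1 with APCDD1 lie to the right of the diamond in both panels, and the bars of pairs with ZNRF3 include it.

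Cells were also ranked, among those of at least 2000 UMIs, by the share of their UMIs in 18 G2M genes, which rise before cell division, or in 18 interferon response genes. In shAPC day 7 the 218 cells of the top 20% by G2M genes and the 869 others had AXIN2 at 3.36 and 4.31 CPM, a log2 ratio of -0.36 (-1.17 to 0.37), and ZNRF3 at 5.41 and 3.08 CPM, 0.81 (0.14 to 1.46). ZNRF3 had 1.12 (0.37 to 1.84) in shScr day 7, and 0.34 and 0.17 in the day 3 libraries with intervals that included 0. By interferon genes, the top 20% of shAPC day 7 had higher AXIN2, NKD1, APCDD1 and TNFRSF19, by 0.84 (0.20 to 1.45), 1.11 (0.22 to 1.94), 1.61 (0.67 to 2.50) and 1.18 (0.06 to 2.22), and ZNRF3 had -0.86 (-1.97 to 0.09). These cells were shallower, at a median of 23088 against 26903 UMIs. In shAPC day 3, where interferon genes were highest, AXIN2 had -0.54 (-1.83 to 0.55) and TNFRSF19 -0.25 (-1.55 to 0.87).

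The genes whose levels over the 4 libraries were nearest to the sum of the members, by Euclidean distance on centred log2 of CPM plus 1 among 15529 genes, were FENDRR, PALM, SLC12A5, HOXB-AS3 and NTM, at distances of 0.169 to 0.237. FENDRR had 9.67, 20.1, 9.25 and 28.8 CPM in shScr and shAPC of day 3 and then of day 7. PALM had 6, 36, 6 and 72 UMIs, and NTM 24, 70, 24 and 128 UMIs, in the same order. With 4 libraries this likeness is a description only.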

How the data were processed

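The authors aligned reads to GRCh38 with Cell Ranger, which uses STAR, and deposited raw UMI counts per gene and barcode for the barcodes called as cells, with gene and barcode lists as other text. The sources used here do not give the cell calling settings or the annotation release. The study's later steps (TMM with ComBat, imputation, clustering) were not applied here. UMIs were summed per library over barcodes of 200 or more genes and 500 or more UMIs whose share of 13 mitochondrial genes was under 5%, with 28451455 to 39797418 UMIs behind each CPM. No doublet caller was run and no doublets were removed. With 1 library a group, no test was run. Ratios have exact conditional binomial and shares exact binomial (Clopper-Pearson) 95% intervals, which cover counting error only; UMIs count molecules. For calls of 2-fold, 0 UMIs were replaced by 3 per library, and no ratio is given where both libraries were at or under 3. Genes counted had at least 10 UMIs over both libraries.

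Members and gene lists were chosen with earlier results of these data known. Named genes were the members, genes of the Wnt lists with at least 4 UMIs in a library (LGR5, SP5 and RNF43, below this, were named after their values were seen) and the 5 nearest profiles. Thinned shares are hypergeometric expectations without random draws, with the binomial interval of the expected number. Python 3.11.15, numpy 2.4.6, scipy 1.17.1, pandas 2.3.3, edgeR 4.0.16 (TMM) and DESeq2 1.42.0 (size factors) were used, and the code was tested on simulated data. Alternatives covered the barcode filters, depth of cells, scaling, thinning and depth bins.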

Additional observations from a re-analysis of the deposited data

Results flagged for a closer look

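Barcodes of at least 5% mitochondrial UMIs were left out of the comparisons, and in shAPC day 7 they held 4 members above their level in the same kind of barcodes of shScr day 7. AXIN2 was at 7.77 CPM there against 0.313 in shScr day 7, NKD1 at 5.88 against 0.313, APCDD1 at 4.86 against 0.0782 and TNFRSF19 at 3.57 against 0.156. ZNRF3 was at 3.77 against 3.52 CPM.

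APCDD1 had log2 ratios of shAPC to shScr of opposite sign at the 2 days, -1.81 at day 3 and 4.10 at day 7, the first on 5 UMIs. BAMBI, a decoy receptor of the TGF-β family and a Wnt target, also had opposite signs, 2.23 at day 3 and -0.97 at day 7. Neither difference between days was tested, since each group holds 1 library.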

How the results depend on the processing

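No paired analysis was possible because each group holds 1 library, so that the groups share 1 replicate number. A fit of shRNA and day together over the 4 libraries would leave 1 residual degree of freedom and was not run. The number of members at least 2-fold higher in shAPC, 3 at day 3 and 4 at day 7, stayed within 1.5 times of itself under all 8 alternatives set at the start, as did the 3 members higher at day 7 within shAPC. This margin is wide for such small numbers and does not mean an unchanged number. With CPM averaged over cells, ZNRF3 was also at least 2-fold higher at day 7, at a log2 ratio of 1.64. Within shScr the number went from 0 to 1 with all deposited barcodes and with a mitochondrial limit of 10%, where NKD1 reached 10 UMIs. Alternatives on depth were chosen after seeing the data. In cells of 20000 to under 40000 UMIs the number was 0 at day 3, with 1 member compared, and 1 within shAPC. In cells of at least 40000 UMIs it was 1 at day 7, with 2 members compared, and 1 within shAPC, where AXIN2 turned to -0.42. These classes hold fewer UMIs. The share of cells with a member scaled with the depth of thinning, from 0.755%, 1.21%, 0.597% and 2.69% at 2000 UMIs through 1.79%, 3.25%, 1.72% and 6.12% at 5000 to 7.01%, 12.9%, 6.94% and 18.2% at 20000 UMIs, in shScr and shAPC of day 3 and then of day 7, and it was 11.4%, 23.2% and 15.8% without thinning in all but shScr day 7. The co-detection value of shAPC day 7, 1.64, was 1.07 with a constant rate per UMI, and it was 0 in both shScr libraries among barcodes of at least 5% mitochondrial UMIs, where under 1 cell was given. For single members, 167 of 174 values under the alternatives set at the start lay within the main interval, which is wide for members on few UMIs. Under the alternatives not set at the start, 53 values lay within it, 10 lay outside it and 1 turned in sign. Depth limits NOTUM at both days and APCDD1 at day 3, each on at most 5 UMIs.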
